A study of Mus musculus with 8 samples.

Results

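Lgr5-positive crypt cells of mouse colon tissue were described from the epithelial libraries of a single-cell study that also profiled colon organoids and colon assembloids, in which organoids grow together with primary stromal cells. The members were chosen by counts of unique molecular identifiers (UMIs, 1 per captured RNA molecule) in single genes. A barcode of the tissue libraries had to hold at least 500 genes, at least 2000 UMIs and at most 10% UMIs from mitochondrial genes. It also had to hold at least 1 UMI of Epcam and at least 1 of Lgr5, at most 1 of Krt20, less than 2% of its UMIs from Muc2 and Spink4 together, and not both Mki67 and Top2a at 2 or more. This found 138 cells in tissue replicate 1 and 104 in replicate 2, so 242 of the 5214 tissue cells that passed the first 3 limits and of 61798 such cells in all 8 libraries. They were compared with 1155 and 1469 cells that held no UMI of Lgr5 and met every other limit, called Lgr5 0 cells. By the same rule, organoids gave 850 and 1378 Lgr5-positive cells and assembloids 480 and 269.

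All groups came from C57BL/6 mice, which the study's methods give as male and 6 to 12 weeks old, and the labels name no allele or treatment. Tissue crypts were released by chelation and shaking, dissociated with TrypLE for 5 min, strained through 40 µm and sorted as live epithelial cells. Organoids were dissociated with TrypLE and assembloids first with Liberase TL, so dissociation differs between the sources and cannot be told apart from them. Each group held 2 libraries. The study describes these as biological replicates, while the labels give neither the medium or age of the cultures nor the mouse behind a tissue library. Per the study's methods, organoids were kept in full medium with Wnt activators and the BMP inhibitor noggin. Assembloids were by default grown in medium lacking all of these. If so here, the medium cannot be told apart from the source, and its part in the comparisons was not tested. Between sources, the p-values rest on the spread between these libraries. Between classes, where the library is a block, they rest on how the class difference varies between libraries, with a spread mostly shared over all genes.

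Lgr5 encodes a receptor for R-spondins, secreted proteins that strengthen Wnt signalling, and is itself a Wnt target. In the colon it marks cycling stem cells at the crypt base, next to deep crypt secretory cells, below transit-amplifying cells and below the colonocytes and goblet cells that fill the upper crypt. Wnt and Notch signals are known to be high at the crypt base, and BMP signals to rise toward the surface. The cycling gate of the rule removes cells with at least 2 raw UMIs of both Mki67 and Top2a, and so depends on depth. The removed Lgr5-positive cells had medians of 18479 and 16084 UMIs, against 10318 and 6101 in the members. Among the members, 68 and 48 held a UMI of 1 or both genes, so cycling cells of low depth may remain.

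The tissue libraries held 12137 and 16974 barcodes, of which 20.1% and 16.3% passed the limits on genes, UMIs and mitochondrial share, against 31.7% to 79.6% in the organoid and assembloid epithelium. The median mitochondrial share of all tissue barcodes was 13.3% and 16.2%. The mitochondrial limit therefore leaves out most tissue barcodes that carry Lgr5. Among barcodes that met the other limits, 27 and 17 had at most 5% mitochondrial UMIs, 77 and 52 had 5% to 9% and 34 and 35 lay just inside at 9% to 10%. Just outside, 37 and 41 had 10% to 11%, 167 and 223 had 11% to 15%, and 229 and 399 had more. The members held 2111 to 61045 UMIs in replicate 1 and 2028 to 30024 in replicate 2. Their medians were 10318 and 6101 UMIs, against 16212 and 5674 in Lgr5 0 cells. Their median mitochondrial share was 7.51% and 7.92%, against 6.50% and 7.03%. The part of depth and of mitochondrial share in the results was not tested beyond the settings given below. The tissue libraries shared 62 barcodes, 0.511% and 0.365% of each.

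The other limits were set by few cells. Krt20, a keratin of surface colonocytes, was at 0 in 127 and 85 members and at 1 UMI in 11 and 19. Outside that limit, 2 and 4 Lgr5-positive cells had 2 UMIs and 10 and 10 had more. Of the members, 7 and 9 lay just inside the limit on the goblet products Muc2 and Spink4, at 1% to under 2% of their UMIs, and 7 and 8 Lgr5-positive cells lay just outside at 2% to under 3%. The cycling limit removed more cells, 71 and 39. Among the members, 70 and 56 held no UMI of either Mki67 or Top2a.

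Lgr5 itself was read from few molecules. In replicate 1, 47 members held 1 UMI of Lgr5, 31 held 2, 20 held 3, 9 held 4, 5 held 5 and 26 held 6 or more, with a highest value of 33. In replicate 2, 67 held 1 UMI, 13 held 2, 10 held 3, 3 held 4, 2 held 5 and 9 held 6 or more, with a highest value of 18. A single UMI thus chose most members of replicate 2. Summed over the members, Lgr5 (chr10:115450311-115587780, minus strand, GRCm38) stood at 295 and 262 CPM, the UMIs of a gene per 1000000 UMIs, here always over the summed cells of a library.

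The share of gated cells with a UMI of Lgr5 was 10.7% (138 of 1293, exact 95% binomial interval 9.04% to 12.5%) in replicate 1 and 6.61% (104 of 1573, 5.43% to 7.95%) in replicate 2, a mean of 8.64% ± 2.87 (SD, n = 2 libraries). These intervals cover counting error only. When every cell was thinned to 2000 UMIs, the shares were 5.34% (4.18% to 6.71%) and 3.43%. In tissue cells with at least 2 UMIs of Krt20, a class that should lack the gene, the thinned shares were 0.472% and 0.389%, and in cells of the goblet gate 1.34% and 0.741%. Before thinning they were 3.07% in the Krt20 class and 5.74% in the goblet gate of replicate 1, at median depths of 17784 and 18828 UMIs against 14903 in the gated cells. In replicate 2 they were 3.11% and 5.19% (3.47% to 7.41%), at 15584 and 15604 UMIs against 5699. The gated share lay above both in each library, though before thinning its interval overlapped that of the goblet gate in replicate 2. Under the same gate, Lgr5 was found in 62.5% and 70.5% of organoid cells (20.6% and 37.0% thinned) and in 2.87% and 6.53% of assembloid cells (1.20% and 1.48% thinned). In the Krt20 class of assembloids the shares were 2.35% and 2.54% (0.561% and 0.493% thinned), at median depths of 9774 and 18334 UMIs against 3883 and 12274 in the gated cells, so before thinning the gated share of assembloid replicate 1 was close to that of a class that should lack the gene. The tissue shares lay below both organoid shares, and after thinning above both assembloid shares. Shares were not tested, since the smallest p that a two-sided exact permutation test of 2 libraries against 2 allows is 0.333. The share moved with the mitochondrial limit. At 5% it was 6.68% and 4.71%, and at 20%, a limit added after the data were seen, 13.1% and 10.6%, on 459 and 554 Lgr5-positive cells.

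**Figure D1:**
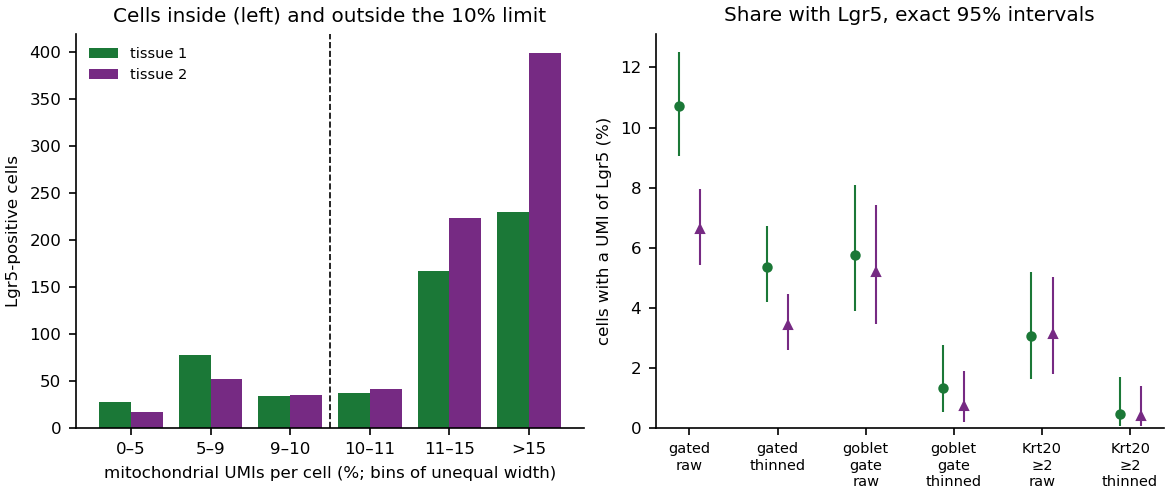
Left, number of Lgr5-positive tissue cells by mitochondrial share in bins of unequal width, with the 10% limit dashed and 1 color per library; right, percent of cells with a UMI of Lgr5 in the gated cells, the goblet gate and the Krt20 class before and after thinning, with exact 95% binomial intervals. More Lgr5-positive cells lie outside the limit than inside it, and the gated share lies above the other classes in each library.

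The label of crypt cells was checked against genes that the rule did not use. A total of 9 crypt base genes served as companions, namely Smoc2, Ascl2, Axin2, Rgmb, Slc12a2, Cdca7, Sox9, Ephb2 and Lrig1. After thinning to 2000 UMIs, 3 or more of them were detected in 58.7% and 45.2% of the members, against 13.9% and 11.8% of Lgr5 0 cells. None was detected in 6.52% and 13.5% of members and in 33.6% and 30.0% of Lgr5 0 cells. Smoc2, which encodes a secreted matrix protein, was detected in 28.3% (20.9% to 36.5%) and 24% (16.2% to 33.4%) of thinned members against 4.85% and 4.56% of Lgr5 0 cells. Lrig1, an inhibitor of EGF receptors, was detected in 52.2% and 44.2% against 24.6% and 26.8%. Of the 9 companions, 8 were detected more often in members in both libraries, and Sox9, as given below, in replicate 1 alone. A minority of members showed none of them at this depth.

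For tests, UMIs were summed over the cells of each class and library and compared with the quasi-likelihood test of edgeR, with the library as a block. Of 13034 genes tested, 1682 (12.9%) were called higher in Lgr5-positive than in Lgr5 0 cells and 1879 (14.4%) lower, at a Benjamini-Hochberg adjusted p under 0.05. This fit has 1 residual degree of freedom, so the spread behind each adjusted p is mostly that shared over all genes. DESeq2 called 450 higher and 723 lower. The median log2 fold change of all genes was 0.01, and calls were 47.2% higher. With total counts in place of TMM factors the median was 0.22 and 73.8% of calls were higher, and DESeq2 gave 38.4%. In one fit of all 12 sums 3048 genes were called and 27.7% of calls were higher, and in the same fit without tissue replicate 1 or replicate 2 it was 15.5% and 22.4%. Of the called genes, 81 (2.27%) did not move the same way in both libraries.

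The crypt stem cell genes were higher in Lgr5-positive cells as a list. Of 25 listed, 19 passed the filter on low counts, and 15 of these were called higher and 1 lower, with a median log2 fold change of 1.23 against 0.01 for all genes. The counts were 14 and 1 with DESeq2, 15 and 1 against Lgr5 0 cells of matched depth, and 13 or 14 higher and 1 lower without either tissue library. Smoc2 (chr17:14279506-14404790) was measured at 149 and 141 CPM in the members and at 15.8 and 17.3 CPM in Lgr5 0 cells, a log2 fold change of 2.94 ± 0.14 (SE, adjusted p = 4.31e-89). Both members' values lay above both Lgr5 0 values. Cd44 (chr2:102811141-102901665), a hyaluronan receptor and Wnt target, was at 114 and 77.7 CPM against 10.2 and 13.3 (2.89 ± 0.16). Clca4a, of the calcium-activated chloride channel regulator family, was at 72.8 and 99.7 CPM against 5.73 and 23.3 (2.63 ± 0.17). Ascl2 (chr7:142966829-142969264), a basic helix-loop-helix factor that maintains intestinal stem cells, was at 24.5 and 14.7 CPM against 3.92 and 2.91 (2.32 ± 0.33), on 45 and 14 UMIs. Its SE is the largest of these 4.

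Rgmb, Cdca7 and Lrig1 rose by smaller amounts. Rgmb, a co-receptor for BMP ligands, was at 161 and 124 CPM against 39.1 and 42.5 (log2 fold change 1.63 ± 0.13). Cdca7, which binds chromatin remodellers, was at 71.2 and 81.9 CPM against 22.8 and 24.4 (1.49 ± 0.16). Lrig1 was at 452 and 434 CPM against 143 and 153 (1.39 ± 0.13). All 3 kept their call with DESeq2 and without either library. Sox9, a factor of crypt progenitors, differed least, at 190 and 148 CPM against 110 and 102 (0.48 ± 0.13, adjusted p = 0.00237). It was not called by DESeq2 (adjusted p = 0.0888), and not without tissue replicate 1 (adjusted p = 0.487) or replicate 2 (adjusted p = 0.0593). After thinning to 2000 UMIs its log2 fold change was 0.07, and it was detected in 16.3% of thinned members of replicate 2 against 17.4% of Lgr5 0 cells. Aqp4, a water channel placed on the list as a crypt gene, was the member that fell, at 217 and 342 CPM against 435 and 584 (-1.08 ± 0.14). Its level was higher still in tissue cells with at least 2 UMIs of Krt20, at 689 and 1029 CPM.

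**Figure D2:**
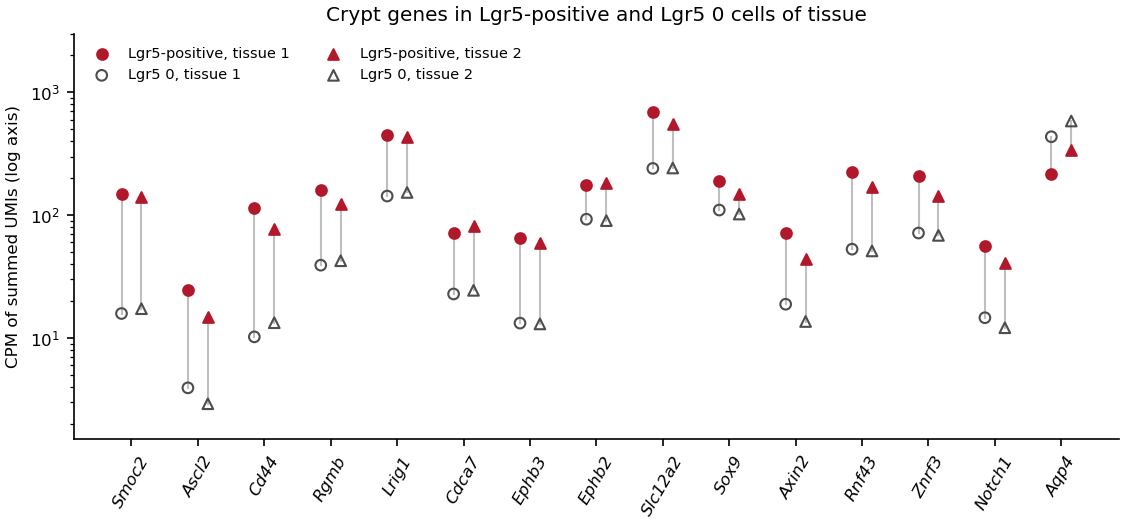
Levels of 15 crypt genes in CPM on a log axis in the Lgr5-positive and Lgr5 0 sums of both tissue libraries, 1 point per library. Smoc2, Cd44 and Ascl2 lie several-fold higher in both Lgr5-positive sums, Sox9 lies close to the Lgr5 0 sums, and Aqp4 lies below them.

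Genes that limit Wnt signalling were among those that rose. Of 25 Wnt receptors and feedback genes listed, 17 were tested, with 7 called higher, 1 lower and a median log2 fold change of 0.23. DESeq2 called 4 higher and 1 lower. Without replicate 1, 3 were higher and 1 lower, Tle4 (-0.58, adjusted p = 0.0439), and without replicate 2, 3 were higher and 1 lower, Ccnd2 (-0.55, adjusted p = 0.033). Rnf43, a ubiquitin ligase that removes Wnt receptors from the membrane, was at 224 and 168 CPM against 52.8 and 51.1 (1.72 ± 0.13). Axin2, a scaffold of the β-catenin destruction complex and a standard readout of Wnt signalling, was at 71.2 and 44.1 CPM against 18.8 and 13.6 (1.63 ± 0.18, adjusted p = 9.62e-18). Znrf3, a second ligase of the Rnf43 kind, was at 207 and 142 CPM against 71.5 and 68.4 (1.13 ± 0.13). These genes kept their call without either library. Fzd7, a Wnt receptor, was at 21.2 and 12.6 CPM against 5.63 and 4.61 (1.55 ± 0.32), and Tcf7, a transcription factor of the pathway, at 3.81 and 6.30 CPM against 1.81 and 0.948 (1.51 ± 0.60) on 7 and 6 UMIs. Myc was at 15.2 and 15.7 CPM against 6.92 and 8.60 (0.83 ± 0.30). Fzd7, Tcf7 and Myc were each called in the fit of both libraries but not without replicate 1 (adjusted p = 0.348, 0.0934 and 0.524) or replicate 2 (adjusted p = 0.0733, 0.533 and 0.0940), nor were Fzd7 and Myc in thinned cells (adjusted p = 0.162 and 0.332) or Myc with DESeq2 (adjusted p = 0.345). Ccnd2, which encodes cyclin D2, was lower, at 303 and 281 CPM against 351 and 346 (-0.45 ± 0.14), but its difference was -0.22 and not called both in thinned cells (adjusted p = 0.52) and against Lgr5 0 cells of matched depth (adjusted p = 0.23). It was also not called without replicate 1 (adjusted p = 0.0568). Lgr4, the relative of Lgr5 that is expressed along the whole crypt, did not pass the test, at 248 and 196 CPM against 219 and 198.

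Since these genes moved together, their promoters were searched for 2 short motifs, on both strands, in RefSeq windows of 300 bases (250 before to 50 after the gene start, GRCm38.p6). The motifs were TCAAAG, a core bound by TCF/LEF factors, and CAGCTG, an E-box of the kind that Ascl2 binds. TCAAAG was in 16.0% and CAGCTG in 16.3% of all 32851 windows. Of 22 crypt stem cell and Wnt genes called higher, 15 had windows. Of their 23 windows, 1 (4.35%) held TCAAAG, that of Prom1, and 3 (13.0%) held CAGCTG, those of Hopx, Sorbs2 and Tcf7. Of the 15 genes with the highest fold changes, searched after their values were seen, 11 had windows. Of these 14 windows, 2 (14.3%) held TCAAAG, of Dach1 and Rad51b, and 4 (28.6%) held CAGCTG. The 4 belong to 3 genes, Arhgef26, Ifitm3 and Rad51b, since both windows of Rad51b overlap and hold the same CAGCTG. The shares of TCAAAG were thus no higher than in all promoters. Axin2 is shown as the Wnt readout without a match, Prom1 and Dach1 as genes with one. Each stretch runs from 180 bases before to 20 after the gene start and is written 5′ to 3′ on the gene's strand, with TCAAAG or its reverse complement CTTTGA in capitals. They lie at chr11:108920169-108920368 (plus strand), chr5:44094749-44094948 (minus strand) and chr14:98169746-98169945 (minus strand).
Axin2: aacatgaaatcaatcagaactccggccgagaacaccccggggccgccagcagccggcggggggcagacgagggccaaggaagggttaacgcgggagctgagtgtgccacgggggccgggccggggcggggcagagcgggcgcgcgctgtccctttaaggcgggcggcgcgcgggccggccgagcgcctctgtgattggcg
Prom1: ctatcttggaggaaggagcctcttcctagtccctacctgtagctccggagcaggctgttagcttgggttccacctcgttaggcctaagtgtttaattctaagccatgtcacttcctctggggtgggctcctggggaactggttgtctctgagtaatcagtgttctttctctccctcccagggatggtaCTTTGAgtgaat
Dach1: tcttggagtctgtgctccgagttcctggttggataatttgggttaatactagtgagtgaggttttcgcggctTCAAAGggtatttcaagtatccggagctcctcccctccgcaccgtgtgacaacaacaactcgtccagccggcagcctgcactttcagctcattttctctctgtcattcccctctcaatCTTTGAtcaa
In Prom1 the match lies 9 bases after the start, and in Dach1 108 bases before and 11 after it. A match describes the letters in the window and not a bound site.

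Eph receptors position cells along the crypt axis by repulsion, and their B-type receptors are known Wnt targets. Of 11 tested, 6 were higher and 1 lower (median 0.62). DESeq2 called 3 higher, and without replicate 1 and replicate 2 the counts were 2 and 4. Ephb3 (chr16:21204755-21223305) was at 64.7 and 59.8 CPM against 13.2 and 13.0 (2.05 ± 0.18, adjusted p = 1.09e-26). Ephb2 was higher in all Lgr5-positive sums by less, at 177 and 181 CPM against 92.6 and 90.2 (0.76 ± 0.13). Epha4 was at 76.7 and 59.8 CPM against 32.7 and 31.9 (0.90 ± 0.16), and was not called without replicate 1 (adjusted p = 0.146). Efnb2, a ligand of these receptors, was lower, at 40.8 and 30.4 CPM against 47.4 and 71.7 (-0.81 ± 0.17), and was not called without replicate 2 (adjusted p = 0.0644). In thinned cells its difference was -0.23 (adjusted p = 0.727).

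Notch1 and Notch2 were called higher, while the ligand Dll1 and the target Hes1 did not pass the test. Of 12 Notch genes tested, 4 were higher and none lower (median 0.07). DESeq2 called 1 higher, as did the fits without either library. Notch1 (chr2:26457903-26516663) was at 56.5 and 40.9 CPM against 14.6 and 12.1 (1.68 ± 0.20, adjusted p = 1.46e-15) and was called without either library. Notch2 was at 19.6 and 14.7 CPM against 8.83 and 6.03 (0.99 ± 0.29), and Rbpj, the DNA-binding partner of the cleaved receptor, at 53.8 and 46.2 CPM against 33.8 and 28.8 (0.47 ± 0.17). Neither was called by DESeq2 (adjusted p = 0.187 and 0.339) or in thinned cells (adjusted p = 0.685 and 0.34). Hes1, the target that represses the secretory fate, was at 396 and 235 CPM against 297 and 167 (0.25 ± 0.14, adjusted p = 0.162). The ligand Dll1 was at 5.98 and 5.25 CPM against 6.66 and 7.52 (-0.49 ± 0.40, adjusted p = 0.397) on 11 and 5 UMIs.

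Id1 and Id3, genes that BMP signals induce, were called lower, while the BMP pathway list did not move one way. Of 13 genes of the pathway tested, 2 were higher and 3 lower (median 0.01), where 12.9% and 14.4% of all genes were called. Id1 (chr2:152736251-152737410), an inhibitor of helix-loop-helix factors, was at 288 and 358 CPM against 450 and 511 (-0.78 ± 0.14, adjusted p = 9.6e-07) and kept its call without either library. Id3, of the same family, was at 97.9 and 101 CPM against 160 and 166 (-0.91 ± 0.14), and was not called without replicate 1 (adjusted p = 0.180) or replicate 2 (adjusted p = 0.0850), or in thinned cells (-0.53, adjusted p = 0.173). Bmp3, an antagonist among the BMP ligands, was at 20.7 and 12.6 CPM against 5.53 and 5.49 (1.44 ± 0.31), and was not called without replicate 1 (0.89, adjusted p = 0.370) or by DESeq2 (adjusted p = 0.0597). Bmp2 was at 20.7 and 26.2 CPM against 26.6 and 27.2 and did not pass the test (-0.44 ± 0.21, adjusted p = 0.111). The receptor Bmpr1a was at 110 and 117 CPM against 95.4 and 100 and did not pass it either. In the EGF family, 2 of 10 genes were higher and 1 lower. One of the higher genes, Ereg, rested on 16 UMIs in 4 cells of replicate 1 and was at 0 in members of replicate 2.

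Of 23 transcription factors and positional genes tested, 4 were higher and 8 lower (median -0.11), and with total counts in place of TMM factors 7 were higher and 2 lower, so the direction of this list depends on the scaling. Sox4, which is expressed in crypt progenitors, was higher at 141 and 154 CPM against 45.8 and 41.4 (1.55 ± 0.13). Klf4, a factor of differentiated goblet cells and surface cells, was lower at 322 and 320 CPM against 418 and 465 (-0.65 ± 0.14). Both kept their call without either library.

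The ion and water transport genes of the crypt split by gene. Of 12 tested, 5 were higher and 4 lower (median 0.12). DESeq2 called 5 and 2, and 2 were higher and 2 lower without replicate 1. Slc12a2, the basolateral cotransporter that loads cells with chloride, was at 690 and 548 CPM against 240 and 242 (1.16 ± 0.14). Kcnq1, the potassium channel that sustains chloride secretion, was at 401 and 288 CPM against 107 and 87.7 (1.62 ± 0.13). Aqp1, a water channel, was at 39.7 and 33.6 CPM against 9.61 and 8.81 (1.80 ± 0.23), and was not called without replicate 1 (adjusted p = 0.0636). Kcnn4, a calcium-activated potassium channel, was at 93.5 and 89.2 CPM against 49.7 and 48.2 (0.70 ± 0.14) and was not called without replicate 1 (adjusted p = 0.0909) or in thinned cells (adjusted p = 0.24). Ano1, a calcium-activated chloride channel, was lower with Aqp4, at 77.7 and 73.5 CPM against 151 and 132 (-1.12 ± 0.15). The 2 water channels thus moved in opposite directions.

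Some genes of DNA replication and mitosis were higher in the members, from which the gate had removed cells with at least 2 UMIs of both Mki67 and Top2a. Of 30 tested, 13 were higher, none lower and 17 not called (median 0.67). DESeq2 called 7, matched depth 9, thinned cells 4, and the fits without replicate 1 and replicate 2 called 6 and 8. Mcm3, a subunit of the replicative helicase, was at 33.7 and 44.1 CPM against 10.7 and 15.3 (1.39 ± 0.21). The rule's own Mki67 was at 71.2 and 54.6 CPM in members and at 42.8 and 34.9 in Lgr5 0 cells, and Top2a at 23.4 and 39.9 against 15.1 and 24.3, which are given as values since the rule limits them. Of 20 ribosome biogenesis genes, 8 were higher and none lower (median 0.47), while DESeq2 called 2 and the fits without replicate 1 and replicate 2 called 2 and 4. Gnl3, a nucleolar protein also known as nucleostemin, was at 91.3 and 82.9 CPM against 36.1 and 35.6 (1.09 ± 0.15) and kept its call without either library. Nolc1 was at 37.0 and 66.1 CPM against 22.5 and 28.5 (0.76 ± 0.17), and was not called without replicate 1 (adjusted p = 0.0502) or replicate 2 (adjusted p = 0.301), by DESeq2 (adjusted p = 0.0808) or in thinned cells (adjusted p = 0.202).

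Colonocyte genes fell in Lgr5-positive cells. Of 22 tested, 16 were lower and none higher (median -0.91). DESeq2 called 10, matched depth 14, thinned cells 5, and the fits without replicate 1 and replicate 2 called 7 and 10. Car1 (chr3:14766216-14808368), a carbonic anhydrase of colonocytes, was at 73.4 and 127 CPM against 195 and 282 (-1.48 ± 0.15, adjusted p = 1.07e-21) and kept its call without either library. Slc26a3, the chloride and bicarbonate exchanger of the surface, was at 23.4 and 65.1 CPM against 55.8 and 97.5 (-1.09 ± 0.17), so replicate 2 members lay above replicate 1 Lgr5 0 cells. It was not called without replicate 1 (adjusted p = 0.426) or replicate 2 (adjusted p = 0.122), or in thinned cells (adjusted p = 0.0862). Aqp8, a water channel of the surface, was at 1.63 and 5.25 CPM against 4.54 and 16.8 on 3 and 5 UMIs (-1.79 ± 0.46). It was not called by DESeq2 (adjusted p = 0.109), in thinned cells (adjusted p = 0.137), or without replicate 1 (adjusted p = 0.126) or replicate 2 (adjusted p = 0.189).

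Goblet products fell as well, of which the gate on Muc2 and Spink4 had removed the highest cells in both classes. Of 16 tested, 11 were lower and none higher (median -0.71), and 1 of these, Spdef, did not move the same way in both libraries. DESeq2 called 8 lower, and the fits without either library called 7. Zg16, a lectin of the mucus, was at 424 and 647 CPM against 1315 and 3041 (-2.13 ± 0.15). Fcgbp, a large protein of the mucus, was at 129 and 151 CPM against 464 and 753 (-2.26 ± 0.15), and Clca1, a mucus protease, at 88.6 and 110 CPM against 256 and 475 (-2.0 ± 0.15). Each was lower in both libraries. In thinned cells Fcgbp was detected in 20.3% and 33.7% of members against 25.4% and 42.3% of Lgr5 0 cells. The classes thus differed relatively less in the share of cells with Fcgbp than in its CPM. Muc2, used by the rule, was at 599 and 718 CPM against 960 and 1913, and Spink4 at 1700 and 2480 against 1387 and 2384.

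The gate on Muc2 and Spink4 had removed cells with high levels of secretory markers from both classes. In the goblet gate of tissue, Reg4 was at 2785 and 2581 CPM, Kit at 212 and 153 and Atoh1 at 162 and 154. Among the cells left, markers of deep crypt secretory cells, which neighbour the stem cells at the crypt base, did not rise as a list. Of 12 tested, 1 was called higher and 3 lower (median -0.51), and of the lower genes Spdef did not move the same way in both libraries. Reg4, the defining gene of these cells, was at 315 and 574 CPM against 171 and 318 (0.67 ± 0.14), but 1 cell held 39.1% of its UMIs among members of replicate 2 and 1 cell 24.4% in replicate 1. With cells thinned to 2000 UMIs its log2 fold change was -0.22, and it was detected in 37.5% of thinned members of replicate 2 against 38.6% of Lgr5 0 cells. Without replicate 1 or replicate 2 it was not called (adjusted p = 0.721 and 0.647). Kit was at 48.9 and 40.9 CPM against 30.6 and 40.2 (0.22 ± 0.17, adjusted p = 0.371), and its direction turned under several settings. Atoh1, the factor of the secretory lineage, was at 15.8 and 21 CPM against 18.2 and 32.0 (-0.59 ± 0.23), and Agr2, a protein folding enzyme of secretory cells, at 1145 and 1749 CPM against 1340 and 2348 (-0.52 ± 0.15). Atoh1 was not called by DESeq2 (adjusted p = 0.389), in thinned cells (adjusted p = 0.154), or without replicate 1 (adjusted p = 0.457) or replicate 2 (adjusted p = 0.622).

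Genes of other epithelial lineages were measured in the members, and those of immune and stromal cells at low levels. Of 15 immune markers 4 were tested and 1 was lower, Lyz2, which had no UMI in the members and stood at 15 CPM over all Lgr5 0 cells, so that it was at least 14.0-fold lower (floor of 3 UMIs over both libraries). Summed over the list, immune markers were at 69.0 and 42.0 CPM in members, with 7 and 13 of 15 at 0, and at 62.0 and 53.1 CPM in Lgr5 0 cells. The list includes Kit, also a marker of deep crypt secretory cells. Kit alone stood at 48.9 and 40.9 CPM in members and at 30.6 and 40.2 in Lgr5 0 cells, so it made up most of both sums of the members. Of 7 MHC class II genes 6 were tested and 4 lower. H2-Eb1 had no UMI in members (at least 11.3-fold lower), and H2-Aa and H2-Ab1 had 2 each, with ratios of 16.2 (4.44 to 134, counting interval) and 17.7 (4.87 to 147). When cells with at least 2 UMIs of enteroendocrine, tuft or leukocyte genes were left out, 2 of these genes were tested and none was called. Without replicate 1, none of 7 was called. Of 15 stromal markers 4 were tested and 1 was higher. The list summed to 20.7 and 19.9 CPM in members and 14.4 and 13.5 in Lgr5 0 cells, and Col1a1, Col1a2, Col3a1 and Dcn were at 0 in all 4 sums. The 17 enteroendocrine markers summed to 2095 and 667 CPM in members against 679 and 942 in Lgr5 0 cells, so they were higher in members of replicate 1 and lower in those of replicate 2. The 16 tuft cell markers summed to 459 and 514 CPM against 352 and 499. They include Krt18, a keratin of epithelial cells in general, so the sum does not measure tuft cell RNA alone. Dclk1 was detected in 1.45% and 4.81% of thinned members against 1.21% and 2.25% of Lgr5 0 cells. Of 14 enteroendocrine genes 3 were called higher and 2 lower, and of these Chgb, Pyy and Isl1 did not move the same way in both libraries. 1 cell held 98.1% of the Pyy UMIs of replicate 1. Of 13 tuft cell genes 1 was lower. Without either library 14 were tested and none was called.

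Most stress genes of dissociation did not pass the test. Of 16, 5 were called higher, 1 lower and 10 not called (median 0.14), and the list summed to 7570 and 7918 CPM in members against 6028 and 6886 in Lgr5 0 cells. DESeq2 called 2 higher, and without replicate 1 none was higher and 1 was lower. Fosb, an immediate early factor, was at 414 and 541 CPM against 255 and 342 (0.48 ± 0.14), and was not called without replicate 1 (adjusted p = 0.106) or replicate 2 (adjusted p = 0.0657), or in thinned cells (adjusted p = 0.065). Of 10 regenerative genes tested, 3 were higher and 3 lower, and of the lower genes Anxa1 did not move the same way in both libraries. Ly6a, the Sca-1 antigen of regenerating epithelium, was at 43.5 and 80.8 CPM against 84.6 and 97.0 (-0.83 ± 0.15), with 1 cell in each library holding 48.8% and 50.6% of its UMIs in members, and was not called without replicate 1 (adjusted p = 0.0584). The part of stress and of single cells in these values was not tested.

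**Figure D3:**
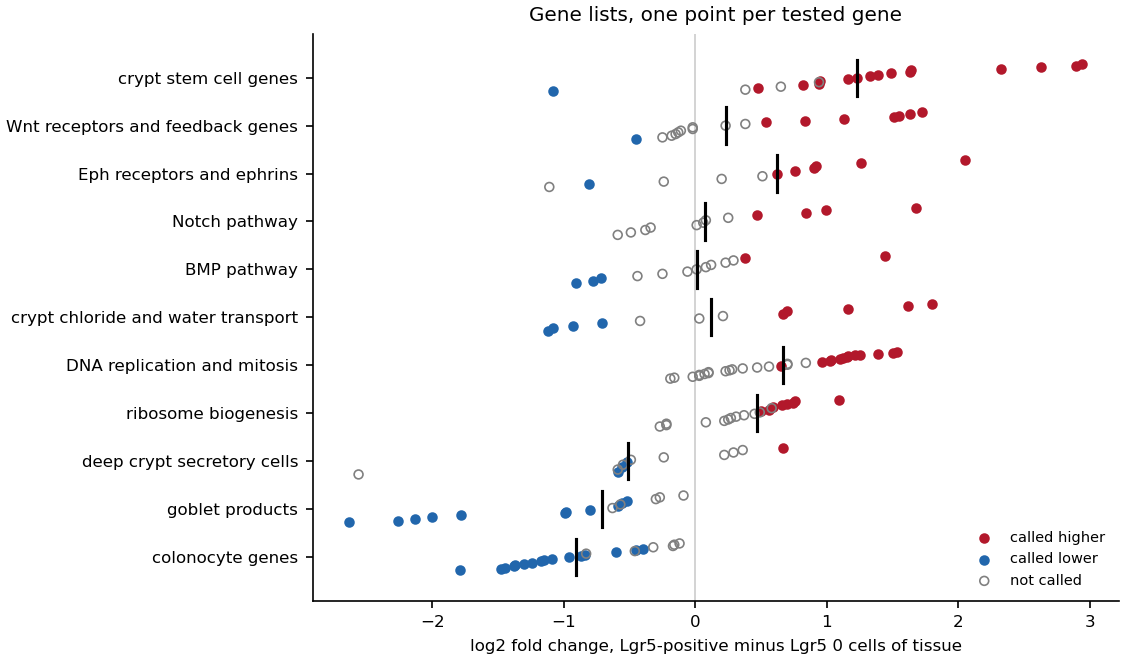
Log2 fold change of each tested gene of 11 lists between Lgr5-positive and Lgr5 0 tissue cells, with filled points for called genes, open points for the others and a black bar at each list's median. Of the crypt stem cell genes 15 of 19 are called higher, and of the colonocyte genes 16 of 22 are called lower.

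Among well-measured genes (mean log2 CPM of at least 5), the 15 with the highest fold changes included, beside Smoc2 and Cd44, several that were on no list. Fstl4 (chr11:52764634-53188538), a follistatin-like protein, was at 88.1 and 126 CPM against 10.2 and 14.0 (2.94 ± 0.16), and was not called without replicate 1 (adjusted p = 0.0719). Fut9 (chr4:25609332-25800244), a fucosyltransferase that makes Lewis x structures, was at 500 and 496 CPM against 81.5 and 76.7 (2.45 ± 0.14, adjusted p = 2.53e-69). Clca3a2 was at 102 and 91.3 CPM against 12.1 and 15.2 (2.67 ± 0.16). Gm43824 (chr3:128610987-128887161), a gene model of unknown function, was at 139 and 131 CPM against 24.7 and 20.5 (2.37 ± 0.14). In each of these genes both values of the members lay above both values of Lgr5 0 cells. This largely follows from their choice by fold change and by the same direction in both libraries.

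Dach1, a transcriptional cofactor whose promoter is shown above, was at 235 and 186 CPM against 39.0 and 45.3 (2.14 ± 0.13). Nox1, the NADPH oxidase of colon epithelium, was at 111 and 70.3 CPM against 21.9 and 18.5 (1.98 ± 0.15). Rgcc, Ifitm3, Vav3, Rad51b, Pcdh17, Sorcs2 and Arhgef26 made up the rest, with log2 fold changes of 1.79 to 2.14. Of these 7, Ifitm3 was not called without replicate 1 (adjusted p = 0.0583).

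The 15 lowest were led by Sst, the hormone of D cells, at 5.44 and 1.05 CPM against 44.9 and 40.3 (-3.67 ± 0.30) on 10 UMIs and 1 UMI. With cells of other lineages left out, its difference was -0.37 and not called (adjusted p = 0.645). The goblet products Fcgbp, Zg16 and Clca1 were among them. Hsd3b3, a steroid dehydrogenase, was at 34.2 and 71.4 CPM against 132 and 170 (-1.80 ± 0.16), and Fabp2, the intestinal fatty acid binding protein, at 53.3 and 102 CPM against 171 and 204 (-1.55 ± 0.15). In thinned cells the difference of Fabp2 was -0.70 and not called (adjusted p = 0.0661). The neighbouring gasdermins Gsdmc2, Gsdmc3 and Gsdmc4 fell by 1.69, 1.74 and 1.56 on the log2 scale. Spink1, Gm3336, Mgat4c, Dpep1, Ctse and 2610528A11Rik fell by 1.59 to 1.78. Of these, Ctse was not called without replicate 1 (adjusted p = 0.0969), and Dpep1 not in thinned cells (-1.05, adjusted p = 0.129). Gsdmc and Clca genes are families of close copies, so counts could be split between their members.

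Most crypt stem cell genes were higher in cells with more Lgr5 UMIs, with exceptions within the members. Of the 19 crypt stem cell genes tested, 17 were higher at 1 Lgr5 UMI than at 0 in both libraries and 1 was lower, and 15 were higher at 3 or more UMIs than at 1 and 1 was lower. Smoc2 stood at 15.8 and 17.3 CPM in cells with 0 UMIs of Lgr5, at 97.8 and 73.0 with 1, at 140 and 219 with 2 and at 187 and 240 with 3 or more. Axin2 stood at 18.8 and 13.6, 48.0 and 32.8, 62.7 and 54.6, and 90.4 and 62.0 CPM in the same order. Both genes were higher in each step in both libraries. Slc12a2 in replicate 1 was at 794 CPM with 2 UMIs and 734 with 3 or more, and Ascl2 in replicate 2 at 20.5 and 15.5, so neither followed that order throughout. Of 17 Wnt receptors and feedback genes, 11 were higher at 1 UMI than at 0 and 1 lower, and 8 were higher at 3 or more than at 1 and 2 lower. Of 22 colonocyte genes, 16 were lower at 1 UMI than at 0 in both libraries and 17 lower at 3 or more than at 1. Of 16 goblet products, 11 were lower at 1 UMI than at 0 and 5 lower at 3 or more than at 1. Cells with 1 UMI of Lgr5 had median depths of 8595 and 4558 UMIs and those with 3 or more 11914 and 8675, so the order by Lgr5 is also an order by depth within the members. These levels are a description across cells of the same libraries, with no test. They are scaled to total counts, under which the median log2 fold change of all genes between the classes was 0.22. How many of all genes follow such an order was not counted, so the counts per list have no background beside them.

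**Figure D4:**
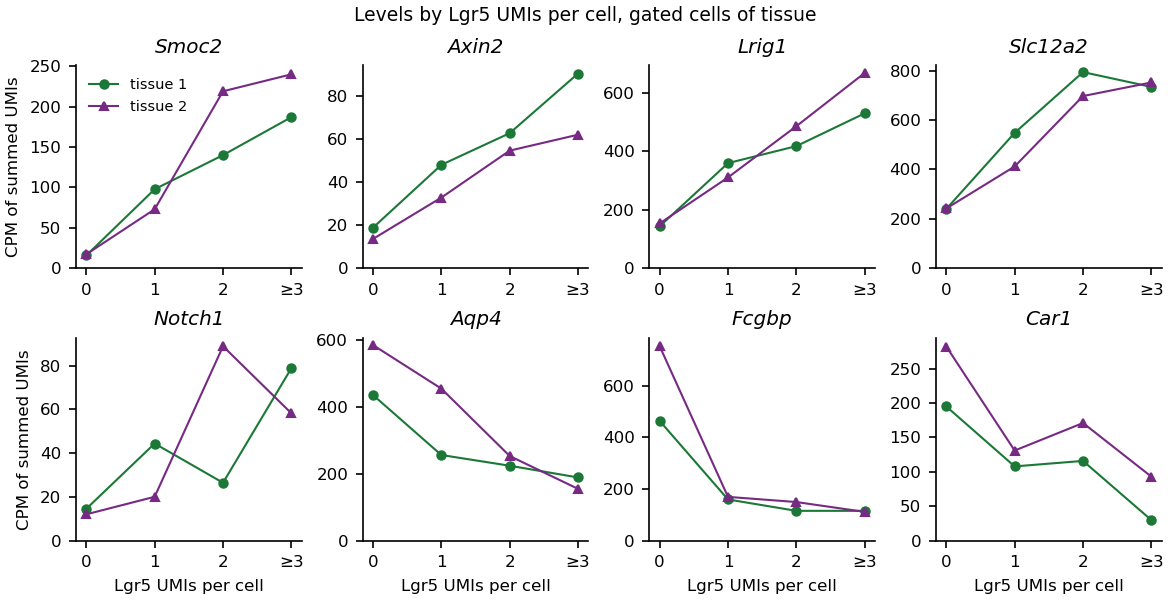
Levels of 8 genes in CPM of the summed UMIs (linear axes, 1 panel per gene) in tissue cells with 0, 1, 2 and 3 or more UMIs of Lgr5, 1 line per library. Smoc2 and Axin2 lie higher at each step in both libraries, and Aqp4 lies highest at 0 UMIs.

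The cycling cells with Lgr5 that the gate excluded also held the crypt genes. In these 71 and 39 cells, Smoc2 stood at 197 and 188 CPM, Axin2 at 83 and 60.2, Lrig1 at 409 and 399 and Fut9 at 478 and 444. The members had 149 and 141, 71.2 and 44.1, 452 and 434, and 500 and 496 CPM. Ascl2 stood at 32.5 and 31.9 CPM in cycling cells against 24.5 and 14.7 in members, and Fstl4 at 164 and 154 against 88.1 and 126, so both were higher in cycling cells in each library. In tissue cells with 2 or more UMIs of Krt20, Smoc2 was at 3.77 and 7.24 CPM and Lrig1 at 37.1 and 55.6, while Car1 was at 2103 and 2519. In cells of the goblet gate, Slc12a2 was at 670 and 472 CPM, close to the 690 and 548 of the members, and Reg4 at 2785 and 2581. Slc12a2 is thus high in both classes, and Smoc2 was at 15.8 and 19.2 CPM in the goblet gate. No test was made between these classes.

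Lgr5-positive cells of tissue were then compared with those of organoids chosen by the same rule. Of 13112 genes, 2057 (15.7%) were higher in tissue and 2019 (15.4%) lower (edgeR quasi-likelihood test over all 6 Lgr5-positive sums). With total counts in place of TMM factors, 67.2% of calls were higher, against 50.5%, and without tissue replicate 1 or replicate 2 it was 76.8% and 61.6%. The comparison with assembloids below uses the same tissue sums, and the values of each comparison stand on their own. Lgr5 was at 295 and 262 CPM in tissue, at 209 and 374 in organoids and at 141 and 86.8 in assembloids.

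The crypt stem cell genes did not move one way between tissue and organoids, with 4 higher and 5 lower of 22 tested (median -0.10, or -0.05 with genes without a UMI at their bound, against -0.04 for all genes). In thinned cells 4 were higher and 2 lower. Smoc2 was at 149 and 141 CPM in tissue and at 74.3 and 60.6 in organoids (0.79 ± 0.28, adjusted p = 0.0456), and was not called without tissue replicate 1 (adjusted p = 0.268), tissue replicate 2 (adjusted p = 0.174) or organoid replicate 2 (adjusted p = 0.113). Rgmb was at 161 and 124 CPM against 25.9 and 31.9 (2.02 ± 0.29). Clca4a was at 72.8 and 99.7 CPM against 0.773 and 0.309. Ascl2 was lower in tissue, at 24.5 and 14.7 CPM against 53.2 and 44.5 (-1.58 ± 0.35), but in thinned cells its difference was -0.84 and not called (adjusted p = 0.247). It was also not called without tissue replicate 2 (adjusted p = 0.0826) or organoid replicate 1 (adjusted p = 0.0815). Lrig1, Slc12a2, Sox9, Ephb2 and Aqp4 did not pass the test, and Slc12a2 at 690 and 548 CPM against 371 and 588 overlapped between the sources (0.10 ± 0.30, adjusted p = 0.820). Tnfrsf19 had 3 UMIs in tissue members and was at 13.4 and 20.8 CPM in organoids, a ratio of 15.6 (5.33 to 76.0, counting interval).

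Of 19 Wnt receptors and feedback genes, 4 were higher in tissue and 6 lower, and without tissue replicate 1 the counts were 1 and 2. Fzd7 was at 21.2 and 12.6 CPM in tissue against 1.25 and 2.42 (2.97 ± 0.47), Fzd5 at 42.4 and 34.6 against 13.0 and 12.3 (1.32 ± 0.31) and Lgr4 at 248 and 196 against 51.5 and 98.7 (1.31 ± 0.30). Lower in tissue, Myc was at 15.2 and 15.7 against 36.1 and 40.7 (-1.60 ± 0.31) and Ccnd1, cyclin D1, at 79.4 and 87.1 against 280 and 336 (-2.18 ± 0.28). Sp5, on the same list, had 2 UMIs in tissue members and 713 in organoids, a ratio of 23.3 (6.43 to 193, counting interval). Lef1 had no UMI in tissue members and 188 in organoids (at least 4.1-fold lower). Axin2 was at 71.2 and 44.1 CPM against 83.2 and 99.2 (-0.93 ± 0.31), but in thinned cells, where organoid and tissue members have equal depth, its difference was -0.05 (adjusted p = 0.949). It was also not called at a mitochondrial limit of 20% (adjusted p = 0.077), without tissue replicate 1 (adjusted p = 0.112) or replicate 2 (adjusted p = 0.320), or without organoid replicate 1 (adjusted p = 0.132) or replicate 2 (adjusted p = 0.102). Fzd5, Lgr4 and Myc were not called without tissue replicate 1 (adjusted p = 0.123, 0.136 and 0.0652), and Fzd5 and Myc not in thinned cells (adjusted p = 0.0927 and 0.353, with Myc at -0.77). Rnf43 and Znrf3 did not pass the test.

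Genes of growth were lower in tissue members. Of 30 DNA replication and mitosis genes 29 were lower and none higher (median -2.02), with 6 lower without tissue replicate 1. Of 20 ribosome biogenesis genes 17 were lower (median -1.22), with 1 lower without tissue replicate 1, 5 without tissue replicate 2 and 8 without organoid replicate 1. Rrm2, the regulated subunit of ribonucleotide reductase, was at 8.15 and 7.35 CPM in tissue against 79.2 and 68.9 (-3.55 ± 0.36). Npm1, a nucleolar chaperone, was at 614 and 584 CPM against 2449 and 1619 (-2.09 ± 0.37), and was not called without tissue replicate 1 (adjusted p = 0.0546). The gate on Mki67 and Top2a applies to raw UMIs, and organoid members were deeper, with medians of 25777 and 11678 UMIs.

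Several lists of differentiated cells held more genes called higher than lower in tissue members. The tissue libraries also held more differentiated cells. The goblet gate held 523 and 540 cells in tissue and 4 and 6 in organoids, and the Krt20 class 424 and 514 against 14 and 10. The part of RNA from such cells in the sums of the members was not tested. Of 23 colonocyte genes 15 were higher and none lower, of 15 goblet products 8 were higher and 1 lower, of 10 deep crypt secretory genes 5 were higher, and of 12 transport genes 7 were higher. Muc3, a membrane mucin, was at 1460 and 1249 CPM against 9.49 and 13.6 (6.60 ± 0.37). Cftr, the chloride channel of crypt secretion, was at 473 and 429 CPM against 35.0 and 43.8 (3.24 ± 0.30), and Reg4 at 315 and 574 against 15.8 and 9.34 (4.81 ± 0.79). The transport count was 4 without tissue replicate 1, tissue replicate 2 or organoid replicate 1. Of 16 stress genes of dissociation 13 were higher and 1 lower, and the list summed to 7570 and 7918 CPM in tissue against 2754 and 2335 in organoids. Fosb was at 414 and 541 CPM against 7.09 and 11.5 (5.42 ± 0.40) and Hspa1a, an inducible heat shock protein, at 414 and 371 against 2.66 and 3.82 (6.64 ± 0.37).

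The 8 genes named as highest against organoids were Mptx1, Gsdmc4, Gm43824, Zg16, Slc5a8, Insl5, Ror1 and Pyy. Their level was averaged across all 3 sources, so genes close to 0 in organoids could be named. For such genes the size of the fold change depends on the fit. The lack of overlap between the sources was part of the choice and is not a separate result. Mptx1, mucosal pentraxin, was at 2756 and 4783 CPM in tissue and at 0.601 and 0.464 in organoids, though 1 cell held 44.0% and 33.2% of its UMIs in the members. Slc5a8, a transporter of short-chain fatty acids, was at 223 and 262 CPM against 0.172 and 0.206 (9.94 ± 0.46), and Zg16 at 424 and 647 against 0.215 and 0.671. Ror1, a receptor tyrosine kinase that binds a Wnt protein, was at 131 and 139 CPM against 0.172 and 0.206 (9.09 ± 0.51). Gsdmc4 was at 200 and 362 CPM against 0 and 0.206, and Gm43824, with 3 UMIs in organoids, had a ratio of 1936 (657 to 9428, counting interval). Insl5 and Pyy, hormones of enteroendocrine cells, were also among these 8, with 98.0% and 98.1% of their UMIs in 1 cell of replicate 1.

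Lower in tissue members were Ly6c1, at 3.81 and 4.20 CPM against 234 and 277 (-6.30 ± 0.42), and Ly6g, of the same family of surface proteins, at 12.5 and 16.8 against 251 and 401 (-4.78 ± 0.37). Mmp7, the protease matrilysin, had 2 UMIs in tissue members and was at 96.0 and 111 CPM in organoids, a ratio of 144 (39.7 to 1186). Cdh13, Bnip3, Gm1673 and Isx were also named. The rule took its level over the sums of all 3 sources, and so also named Trp53cor1, a long noncoding RNA, which stood at 3.33 CPM over both organoid libraries and had no UMI in tissue members (at least 3.10-fold lower). Its rank rests on a fitted fold change against 0 counts, and it was not called in thinned cells (adjusted p = 0.155) or without any 1 library of tissue (adjusted p = 0.291 and 0.130) or organoids (adjusted p = 0.16 and 0.202). Of 15 regenerative genes 11 were lower and 1 higher, with 5 lower without tissue replicate 1.

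Against Lgr5-positive cells of assembloids, 1879 of 13112 genes (14.3%) were higher in tissue and 2101 (16.0%) lower (edgeR quasi-likelihood test). Calls were 47.2% higher, and 72.9% with total counts, which shifted the median of all genes from -0.03 to 0.45. Assembloid sums carried more stromal RNA than tissue sums. Stromal markers summed to 208 and 143 CPM in assembloids and to 20.7 and 19.9 in tissue, 7 of 10 tested were lower in tissue, and Col1a1, Col1a2, Col3a1 and Dcn were at 0 there. Immune markers summed to 98.4 and 204 CPM against 69.0 and 42.0, and 4 of 6 were lower in tissue. Kit, counted in this list, was at 1.17 and 0.373 CPM in assembloids and made up 48.9 and 40.9 CPM of the tissue sums. The part of these RNAs in the comparison was not tested.

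Crypt stem cell genes were higher in tissue members than in those of assembloids, 12 of 22 tested against 3 lower (median 1.12). The counts were 7 and 1 without tissue replicate 1. In assembloid replicate 1 the gated share with a UMI of Lgr5, 2.87%, was close to the 2.35% of its Krt20 class, so the assembloid cells chosen here may include cells with a background UMI, and their number was not tested. With at least 2 UMIs of Lgr5 asked for in both sources, 12 of 21 were higher and 2 lower. Smoc2 was at 149 and 141 CPM against 4.90 and 5.97 (4.24 ± 0.34, adjusted p = 3.17e-06). Rgmb was at 161 and 124 CPM against 9.33 and 15.7 (3.03 ± 0.31), Lrig1 at 452 and 434 against 79.3 and 111 (1.74 ± 0.31) and Ascl2 at 24.5 and 14.7 against 3.96 and 2.61 (2.14 ± 0.43). Sorbs2, an adaptor of the actin cytoskeleton, was at 502 and 380 CPM against 32.6 and 39.4 (3.13 ± 0.33). Every tissue value of these genes lay above every assembloid value. Ascl2 was not called without tissue replicate 1 (adjusted p = 0.114). Slc12a2 was at 690 and 548 CPM against 167 and 220 (1.20 ± 0.31), and was not called without tissue replicate 1 (adjusted p = 0.176), tissue replicate 2 (adjusted p = 0.0649) or assembloid replicate 1 (adjusted p = 0.0825). Sox9 was at 190 and 148 CPM against 46.9 and 45.9 (1.37 ± 0.29), and was not called without tissue replicate 1 (adjusted p = 0.101). Neither Slc12a2 nor Sox9 was called in thinned cells (adjusted p = 0.0596 and 0.0609).

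Prom1, a membrane protein of stem and progenitor cells, and Igfbp4, a binding protein of insulin-like growth factors, were lower in tissue. Prom1 was at 59.8 and 85.0 CPM against 164 and 217 (-1.89 ± 0.32), and was not called without tissue replicate 1 (adjusted p = 0.0578). Igfbp4 was at 0 and 3.15 CPM against 49.7 and 38.1, a ratio of 40.2 (13.7 to 196, counting interval) on 3 UMIs in tissue. Ephb2, at 177 and 181 CPM against 109 and 190, and Cdca7, at 71.2 and 81.9 against 43.6 and 28.8, did not pass the test.

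Of 19 Wnt genes, 4 were higher in tissue and none lower, and without tissue replicate 1 the count was 1. Znrf3 was at 207 and 142 CPM against 26.3 and 28.6 (2.18 ± 0.33), Rnf43 at 224 and 168 against 51.3 and 59.0 (1.34 ± 0.31) and Axin2 at 71.2 and 44.1 against 19.3 and 14.0 (1.31 ± 0.33). Rnf43 and Axin2 were not called without tissue replicate 1 (adjusted p = 0.143 and 0.244), and Axin2 not without assembloid replicate 2 (adjusted p = 0.0793). Notch1 was at 56.5 and 40.9 CPM against 6.06 and 8.96 (2.22 ± 0.33), and Ephb3 at 64.7 and 59.8 against 13.8 and 14.2 (1.67 ± 0.29). Id1 was at 288 and 358 CPM against 66.0 and 72.8 (1.73 ± 0.31). In the EGF family none of 9 was higher and 5 were lower, among them the receptor Erbb3, at 111 and 87.1 CPM against 839 and 497 (-3.26 ± 0.38), and the ligand Areg, at 77.2 and 104 against 397 and 391 (-2.63 ± 0.32).

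Transport genes were higher in tissue, 8 of 12 with none lower, and 5 and 4 of 12 without tissue replicate 1 and replicate 2. Kcne3, a subunit of the Kcnq1 channel, was at 152 and 133 CPM against 7.69 and 8.77 (3.62 ± 0.37), and Cftr at 473 and 429 against 28.7 and 44.8 (3.14 ± 0.30). Colonocyte genes went both ways, 12 higher and 6 lower of 23. Slc26a3 was at 23.4 and 65.1 CPM against 10.7 and 2.24 (2.24 ± 0.64), and was not called without tissue replicate 2 (adjusted p = 0.272), while Car1 was at 73.4 and 127 CPM against 436 and 337 (-2.46 ± 0.40). Of 30 DNA replication and mitosis genes 12 were lower and none higher (median -0.65), with 2 lower without tissue replicate 1 and 4 without replicate 2. Of 15 regenerative genes 12 were lower and 1 higher, with 5 lower without tissue replicate 1. Ly6a was at 43.5 and 80.8 CPM against 743 and 906 (-4.24 ± 0.40) and Ly6c1 at 3.81 and 4.20 against 173 and 139 (-5.81 ± 0.42). Of 16 stress genes of dissociation, 9 were higher and 2 lower in tissue, and the list summed to 3515 and 4374 CPM in assembloid members. Without tissue replicate 1 and replicate 2, 2 and 4 were higher.

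The genes named as highest against assembloids included Fut9, which had 3 UMIs in assembloid members and stood at 500 and 496 CPM in tissue, a ratio of 1602 (547 to 7777, counting interval). Against organoids, Fut9 was not among these 8. Sycn, a protein of secretory granules, was at 853 and 1725 CPM against 2.10 and 3.73 (8.29 ± 0.52). Mptx1, Gm43824, Gsdmc4, Ror1, Slc5a8 and Insl5 completed the highest 8, chosen by the same rule. In assembloid members Mptx1 and Gm43824 had 1 UMI each and Ror1 had 3, so the size of their fold changes depends on the fit. Lower in tissue, where they had no UMI in members, were Trp53cor1, at 313 and 120 CPM in assembloids (at least 192-fold lower), Saa3, an acute phase protein (at least 85.0-fold lower), and Lyz2 (at least 85.2-fold lower). Saa3 was not called without tissue replicate 1 (adjusted p = 0.0608). Sprr1a, a protein of the cornified envelope, had 1 UMI in tissue members and was at 165 and 174 CPM in assembloids, a ratio of 474 (85.0 to 18738). Bnip3, a mitophagy receptor, was at 1.09 and 4.20 CPM against 282 and 244 (-7.39 ± 0.50). Gm29585, Gm41609 and F630040K05Rik completed the lowest 8.

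**Figure D5:**
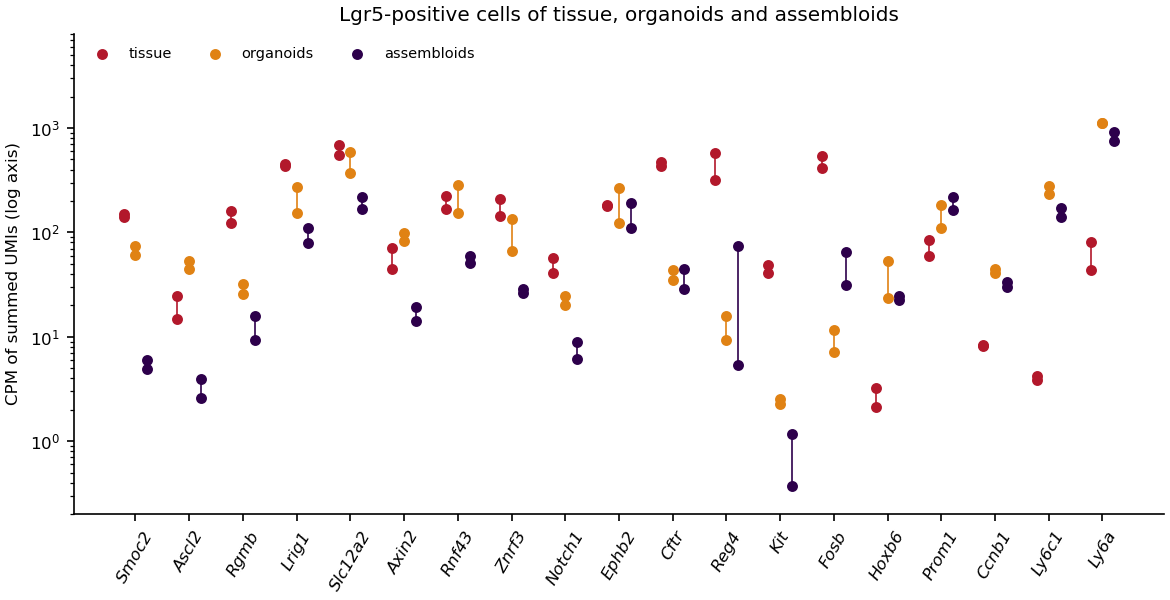
Levels of 19 genes in CPM on a log axis in the Lgr5-positive sums of tissue, organoids and assembloids, 1 point per library, with a line joining the libraries of a source. Smoc2 lies at 149 and 141 CPM in tissue, 74.3 and 60.6 in organoids and 4.90 and 5.97 in assembloids, and Ly6c1 lies lowest in tissue.

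The difference between Lgr5-positive and Lgr5 0 cells was itself compared between the sources, as an interaction over all 12 sums. Against organoids, 205 of 16398 genes (1.25%) had a larger difference in tissue and 679 (4.14%) a smaller or more negative one. Against assembloids, the counts were 366 (2.23%) and 961 (5.86%). In assembloids the Lgr5 0 sums carried more RNA of other cells than the Lgr5-positive sums, with stromal markers at 668 and 1024 CPM against 208 and 143 and immune markers at 191 and 597 against 98.4 and 204. The part of these RNAs in the class differences was not tested. Among 23 crypt stem cell genes tested, 7 had a larger and 1 a smaller difference in tissue than in organoids, and 9 and 2 than in assembloids. Their median difference was 0.64 and 0.62, against -0.14 and -0.11 for all genes. In thinned cells Smoc2, Ascl2 and Cdca7 lost the call against organoids, and Smoc2, Rgmb and Lrig1 against assembloids. Cd44 and Aqp4 kept it against both, and Clca4a against assembloids. Lgr5 was found in 62.5% and 70.5% of gated organoid cells (20.6% and 37.0% thinned). The number of organoid Lgr5 0 cells with undetected Lgr5 was not tested. Ascl2 differed between the classes by 1.81 more on the log2 scale in tissue than in organoids (adjusted p = 0.0101, and 0.0645 in thinned cells), where it stood at 53.2 and 44.5 CPM in Lgr5-positive and at 37.0 and 31.3 in Lgr5 0 cells. Cd44 differed by 2.94 more in tissue (adjusted p = 0.00256), with 53.7 and 124 CPM in organoid Lgr5-positive and 58.8 and 124 in Lgr5 0 cells. Lrig1 had 155 and 273 CPM against 61.9 and 107 in organoids, and its difference did not pass the test (0.04, adjusted p = 0.901). Over all genes, 98 passed against organoids and 136 against assembloids without tissue replicate 1, and 802 and 1265 without replicate 2, as compared with 884 and 1327.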

How the data were processed

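The 8 libraries were made with a 3' single-cell kit, and the deposited files hold counts of UMIs for each gene in each barcode, made by the authors with Cell Ranger (7.1.0 for epithelium and 6.0.1 for stroma per the file headers; version 6 and mm10 in the submitters' processing notes). Barcodes, 32285 features and counts were used as deposited, and gene and barcode files hold names only. Whether intronic reads were counted is not given in the sources used here. The study gives 2 biological replicates per source.

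Cells were chosen by the rule given above and UMIs summed per class and library, to 1839501 and 952496 UMIs in the tissue members and 19364142 and 14760463 in Lgr5 0 cells. No doublet caller was run. Tests on the sums used edgeR 4.0.16 (R 4.3.3), by quasi-likelihood, after its low-count filter and TMM scaling, with the library as a block between classes of the same libraries (1 residual degree of freedom) and without a block between sources (3). P-values were Benjamini-Hochberg adjusted over all tested genes. DESeq2 1.42.0 was an alternative. With a library left out, classes were compared in a fit pooled with the other sources, so the lone sample is assumed to vary like the other groups. Thinning drew 2000 UMIs per cell. The scripts were tested on simulated data with known changes. Genes were named by rule: the 15 highest and 15 lowest between classes at a mean log2 CPM from 5 upward and the same direction in both libraries, the 8 highest and 8 lowest at that level (mean over all 3 sources) without overlap between sources (mitochondrial, ribosomal protein and immunoglobulin genes left out of both), up to 4 called members of each of 20 lists per direction, and a set of known crypt genes. Genes given in CPM only were chosen after their values were seen. The members and lists were chosen with earlier results of these data known. Promoter sequences are from RefSeq. Figures were drawn with matplotlib 3.10.9.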

Additional observations from a re-analysis of the deposited data

Results flagged for a closer look

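For these genes the log2 difference between Lgr5-positive and Lgr5 0 cells itself differed between tissue and a culture, by an interaction term in edgeR's quasi-likelihood fit over 12 sums (adjusted p under 0.05). Each value is the log2 difference between the classes in tissue minus that in the culture, and both comparisons share the tissue sums.

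Against organoids, the log2 difference was larger in tissue for Cd44 2.94, Ascl2 1.81, Clca3a2 1.71, Ephb3 1.20, Smoc2 1.06, Gnl3 1.04, Axin2 0.98, Mcm3 0.92, Rgcc 0.90, Rad51b 0.87, Nox1 0.84, Arhgef26 0.83, Sox4 0.79, Rnf43 0.75, Cdca7 0.75 and Kcnq1 0.57. It was lower or more negative in tissue for Id1 -0.59, Fcgbp -1.29, Mgat4c -1.31, 2610528A11Rik -1.32, Gm3336 -1.53, Aqp4 -1.83 and Spink1 -2.19.

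Against assembloids, the log2 difference was larger in tissue for Clca4a 3.8, Ifitm3 3.6, Fut9 3.58, Fstl4 3.54, Gm43824 3.37, Clca3a2 2.99, Cd44 2.72, Vav3 1.86, Ephb3 1.82, Dach1 1.61, Rgcc 1.6, Rad51b 1.52, Smoc2 1.40, Nox1 1.28, Sox4 1.26, Rgmb 1.24, Arhgef26 1.07, Notch1 1.03, Rbpj 0.95, Sorcs2 0.93, Kcnq1 0.74, Gnl3 0.61, Rnf43 0.60 and Lrig1 0.39. It was lower or more negative in tissue for Klf4 -0.56, Id1 -0.69, Ly6a -0.90, Ano1 -0.95, Efnb2 -0.96, Ccnd2 -1.12, 2610528A11Rik -1.20, Gm3336 -1.41, Hsd3b3 -1.45, Aqp4 -1.50, Fcgbp -1.54, Mgat4c -1.72, Spink1 -1.91, Clca1 -1.96 and Ctse -2.29.

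In thinned cells 8 of the 23 differences against organoids were called, those of Cd44, Clca3a2, Spink1, Mgat4c, 2610528A11Rik, Ephb3, Axin2 and Aqp4, and 15 were not (adjusted p from 0.0519 to 0.567, edgeR quasi-likelihood test). Against assembloids 11 of 39 were called, those of Cd44, Ifitm3, Vav3, Rad51b, Spink1, Mgat4c, 2610528A11Rik, Clca4a, Aqp4, Kcnq1 and Sox4, and 28 were not (adjusted p from 0.0516 to 0.762). Some of the values against assembloids rest on very few UMIs in the Lgr5-positive assembloid sums, 0 and 3 for Fut9, 0 and 1 for Gm43824 and 3 and 5 for Ctse, so their size depends on the fit. Ifitm3 stood at 224 and 380 CPM in the Lgr5 0 sums of assembloids and at 116 and 90.0 in the Lgr5-positive sums, and stromal markers were also higher in the Lgr5 0 sums, at 668 and 1024 CPM against 208 and 143.

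Without tissue replicate 1, 4 of the 23 differences against organoids and 10 of the 39 against assembloids were called, and without replicate 2, 17 and 31. Over all genes, 98 and 136 were called without replicate 1 and 802 and 1265 without replicate 2, of 884 and 1327 with both libraries.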

How the results depend on the processing

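The number of genes called between Lgr5-positive and Lgr5 0 tissue cells, 3561, was 1173 with DESeq2 (1170 shared), 1788 at matched depth (1736 shared), 685 in thinned cells (658 shared), 147 against a 2-fold change, 512 and 6056 at mitochondrial limits of 5% and 20% (the latter added after seeing the data), and 1898 with no replicate block. With a tissue library left out it was 932 to 2072 in a fit pooled over all sources, which called 3048 (2533 shared) with both libraries. Against organoids, 4076 became 1455 against a 2-fold change, 2445 at 5% mitochondrial UMIs, 1784 in thinned cells and 1030 to 3780 with a library left out. Against assembloids, 3980 became 1664, 2120 and 1861 under the same settings, 2608 with at least 2 UMIs of Lgr5, and 1164 to 3750 with a library left out. Among the fits with a library left out, the lowest counts of all 5 comparisons were those without tissue replicate 1. The class differences between sources, 884 and 1327 genes, became 193 and 102 in thinned cells, 2000 and 2236 with no low count filter, and 98 to 802 and 136 to 1265 without a tissue library. The mean share of Lgr5-positive cells, 8.64%, was 4.38% thinned, 5.70% and 11.9% at 5% and 20% mitochondrial UMIs, and 6.61% to 10.7% with a library left out. The cause of these shifts was not tested.

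Replicate numbers were not used to pair the samples of different sources. The deviations of same-numbered libraries had correlations of -0.0947, 0.00211 and -0.000649. With 2 libraries per source, these values cannot show whether such libraries share a mouse or a run. With the replicate block the counts were 3787 against organoids (3725 shared) and 3721 against assembloids (3670 shared).

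In thinned cells 17 of 70 named genes called between classes lost their call, 9 of 49 against organoids and 3 of 54 against assembloids, and at 5% mitochondrial UMIs, on 27 and 17 members, 27 of 71 did between classes. Of the single gene values, 3144 kept direction and side of the threshold, 279 lost and 20 gained the call, and 26 changed sign. Between classes, Notch2 was -0.93 and Ly6a 0.23 at 5% mitochondrial UMIs. Reg4 was -0.38 with Lgr5 read after thinning and -0.22 in thinned cells. Kit was -0.16 at matched depth, -0.09 and -1.64 at 20% and 5% mitochondrial UMIs, -0.45 in thinned cells and -0.28 to 0.33 with a tissue library left out. Against organoids, Slc12a2 was -0.28 at 5% mitochondrial UMIs, -0.02 with no low count filter, and -0.09 to 0.33 with a library left out (below 0 without organoid or tissue replicate 1). Aqp4 was 0.04 with DESeq2, 0.29 with total counts, 0.0 without cells of other lineages or without the deepest 5% of cells, and 0.14 to 0.29 without organoid or tissue replicate 1. Ephb2 was -0.74 to 0.12 with a library left out, above 0 without organoid replicate 2. Against assembloids, Ephb2 was 0.15 with Lgr5 read after thinning, 0.25 with total counts, 0.01 without the deepest 5% of cells and -0.52 to 0.14 with a library left out, above 0 without assembloid replicate 2, and Myc was 0.51 at 5% mitochondrial UMIs and 0.44 in thinned cells. The part of low counts in these changes was not tested.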
